A study of Mus musculus with 4 samples.

Results

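The enzymes and transporters of central carbon metabolism were followed in the ileum of mice given metformin by mouth; the ileum is the stretch of small intestine before the colon. The group comprised 43 genes, listed by name and pathway step: 11 enzymes of glycolysis, 4 genes of lactate formation and export, 6 of pyruvate entry into mitochondria, 12 of the tricarboxylic acid (TCA) cycle, 6 of gluconeogenesis and 4 of the pentose phosphate pathway. All 43 were found through the RefSeq accessions of the array's probes, among 21649 genes and unnamed transcripts tested, and all 43 were well above background on all 4 arrays. The samples were 2 ileal RNA samples from male C57BL/6J mice given metformin orally at 1000 mg/kg, named metformin 1 and metformin 2, and 2 from male control mice of that strain, named control 1 and control 2. All were 10 weeks old per the labels, which give neither the length of treatment, nor what the controls received, nor whether each sample was a separate animal. The p-values therefore reflect only how these 4 samples scatter, and some of that scatter may be technical. The RNA came from bulk ileum, so fewer cells of a type and less RNA per cell cannot be told apart.

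Glycolysis splits glucose into pyruvate in the cytosol. Pyruvate is either reduced to lactate and exported or carried into mitochondria, where the pyruvate dehydrogenase complex feeds it as acetyl-CoA into the TCA cycle. Gluconeogenesis runs the opposite way through a few enzymes of its own, and the pentose phosphate pathway diverts glucose 6-phosphate to make NADPH and ribose. Metformin is a glucose-lowering biguanide known to inhibit mitochondrial complex I, and the gut is known to take up more glucose and release more lactate under it.

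Each level given here is the log2 of a probe's processed signal minus the 75th percentile of its array, and each difference is metformin minus control on that scale, so that 1 is a 2-fold change. A level compares samples for 1 probe and not 1 gene with another. Each array had 65.2% to 69.1% of its probes well above background, and no spot was saturated. A pair of samples stood apart in their tissue markers. In metformin 1, the median of 10 markers of the proximal small intestine lay 2.35 above the control mean, against -0.63 in metformin 2, 0.30 in control 1 and -0.30 in control 2. The median of 7 ileal markers there lay -1.58 from the control mean, against 0.50 in metformin 2, 0.14 in control 1 and -0.14 in control 2, with all 7 above background on every array. The median of 9 measured smooth muscle markers was -3.62 in metformin 1 and -2.55 in metformin 2, against 2.46 in control 1 and -2.46 in control 2, and all 9 were highest in control 1.

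Most of the enzymes had slightly higher levels with metformin, except in the unscaled deposited table, where 14 of the 43 did, and none passed the test. The difference was above 0 for 36 of the 43, where 57.6% of all genes tested were above 0, and its median was 0.20, against 0.06 over all genes. By limma with Benjamini-Hochberg adjustment over all genes, 0 members were called higher and 0 lower (0.0% of all genes in either direction). The smallest unadjusted p of a member was 0.073, for Pck1, with an adjusted p of 1.00, and 0 members had an unadjusted p under 0.05, against 1.6% of all genes. Both metformin samples lay above both controls in 9 members (20.9%), where 12.3% of all genes did so. The gap was about 0.05, the SD of repeated spots, or less in Gpi1, Pgk1, Eno1, Slc16a1, Dlst and Suclg1. It was wider in Pgam1, Mpc2 and Pck1. Both metformin samples lay below both controls in 1 member, where 8.57% of all genes did so. The median of the members relative to the control mean was 0.20 in metformin 1 and 0.10 in metformin 2, against 0.08 in control 1 and -0.08 in control 2. The 2 metformin medians thus stood above the 2 control medians, but metformin 2 exceeded control 1 only slightly. Markers of other cells differed more: all 7 measured leukocyte markers had a difference above 0, with a median of 0.50, as had all 10 proximal intestinal markers, with a median of 0.77. The leukocyte median relative to the control mean was 1.10 in metformin 1 and -0.21 in metformin 2, against -0.14 in control 1 and 0.14 in control 2. In both of these lists the median was highest in metformin 1 and lowest in metformin 2. All 8 fibroblast markers were below both controls in both metformin samples, with a median difference of -2.08, while 10 epithelial markers had a median of 0.16, with 7 above 0. The part of tissue makeup in the members' shift was not tested.

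The size of this shift depended on the scaling of the arrays and on single samples. With quantile normalization the median of the members was 0.079 and that of all genes 0.06, and the members without overlap numbered 2 higher and 1 lower of 43, where 14.0% of all genes were higher and 7.82% lower in this way. With each array's median subtracted in place of its 75th percentile the median was 0.32, against 0.19 over all genes, with 18 higher and 0 lower, where 26.4% of all genes were higher and 5.14% lower. In the deposited table without scaling the median was -0.072, against -0.17 over all genes, with 0 higher and 3 lower, where 1.35% of all genes were higher and 17.8% lower. Without metformin 1 the median of the members was 0.10 and without control 2 it was 0.12. Leaving out metformin 1 turned the sign of 11 members: Tpi1, Pkm, Slc16a3, Pdhb, Cs, Suclg2, Mdh1, Mdh2, Pcx, Slc37a4 and Taldo1. The medians of 2 steps also turned without metformin 1, to -0.24 in lactate and -0.10 in gluconeogenesis, as did lactate without control 2, to -0.24, and pyruvate entry without control 1, to -0.04. Leaving out control 1 turned 9 members (Pfkm, Pdha1, Dlat, Dld, Idh3a, Idh3b, Fh1, G6pc and Tkt). Leaving out control 2 turned 7 (Slc16a3, Pdhb, Cs, Suclg2, Mdh1, Fbp1 and Taldo1), and leaving out metformin 2 turned 7 (Pfkm, Aldoa, Pdha1, Dld, Fh1, Fbp1 and Tkt). In the unscaled table every step but gluconeogenesis, at 0.07, had a median below 0. Quantile normalization turned 6 members: Aldoa, Pdha1, Dld, Fh1, Taldo1 and Tkt. Most members were bright: 34 of the 43 were among the brightest 5412 genes tested, where the median difference of all genes was 0.12. Those 34 members had a median of 0.21. Of all genes that bright, 68.5% had a difference above 0, 15.4% lay above both controls without overlap and 2.24% below, closer to the members' counts than the shares over all genes were. This split by brightness was made after the values were seen. The part of brightness in the shift was not tested.

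**Figure D1:**
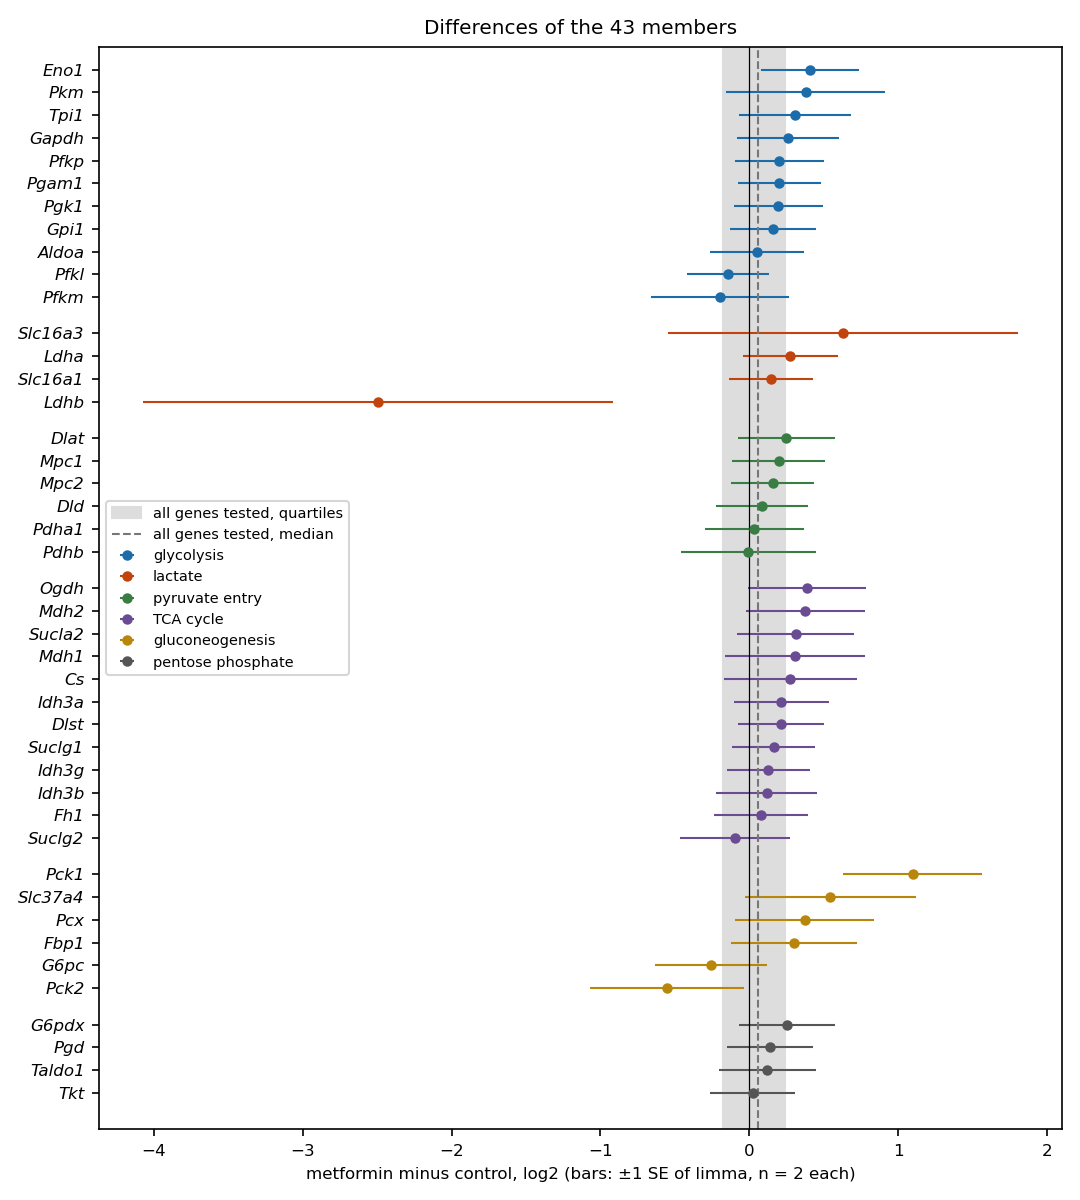
Difference between metformin and control for each of the 43 members, in log2 units on the horizontal axis, grouped and coloured by pathway step, with bars of ±1 SE from limma (n = 2 samples each). The grey band holds the middle 50% of all genes tested and the dashed line their median of 0.06. Most members lie right of 0 by less than their own SE (14 of the 43 lie right of 0 in the unscaled deposited table), and Ldhb, at -2.50, and Pck1, at 1.10, stand farthest out.

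**Figure D2:**
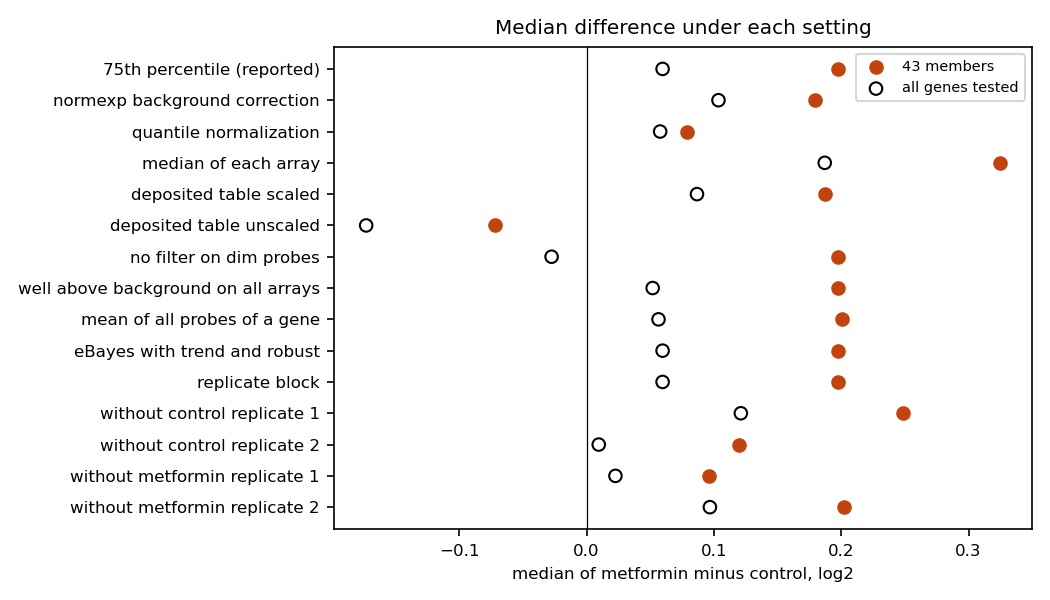
Median difference of the 43 members (filled points) and of all genes tested (open points) under the reported scaling and 14 other settings, on a log2 axis. The members' median lies right of that of all genes in every setting drawn, by 0.14 in the reported setting and by 0.02 with quantile normalization.

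The members varied little between arrays. The range over the 4 arrays was under 1 for 34 of the 43 members, where 64.0% of all genes tested stayed under 1, and its median was 0.57, against 0.77 over all genes. The middle 50% of the members' differences lay between 0.08 and 0.31, whereas that of all genes lay between -0.17 and 0.24. The difference was under 0.5 in size for 38 members (88.4%), as for 82.2% of all genes. The SE of a member's difference, which limma draws toward a value shared by all genes, had a median of 0.33. Only 4 members differed by more than this SE. It can exceed a member's own scatter: Pfkl had an SD of 0.03 within each group but an SE of 0.27. Of the 10 members with several probes, 9 had all probes on the same side of 0, and the exception was Pdhb, whose 2 probes differed by -0.01 and 0.00.

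Glycolysis was measured from glucose 6-phosphate to pyruvate. Of its 11 enzymes, 9 had a difference above 0 and 2 below, with a median of 0.20. Eno1, the enolase that makes phosphoenolpyruvate, had the highest difference. Its levels were 6.18 in metformin 1 and 5.73 in metformin 2, against 5.70 in control 1 and 5.39 in control 2. The groups did not overlap, but metformin 2 and control 1 were almost equal, and the difference was 0.41 (SE 0.33, limma unadjusted p = 0.28, adjusted p = 1.00). Pkm, the pyruvate kinase that makes pyruvate and ATP, had the widest range of the step. It read 4.43 in metformin 1 and 3.12 in metformin 2, against 3.60 in control 1 and 3.20 in control 2, so that metformin 1 alone was high and metformin 2 was the lowest of the 4. Its difference was 0.38 (SE 0.53), and -0.28 without metformin 1.

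The middle steps shared small positive differences. Tpi1, which interconverts the triose phosphates, differed by 0.31 (SE 0.38), and Gapdh, which oxidises glyceraldehyde 3-phosphate, by 0.26 (SE 0.34). All 7 probes of Gapdh gave differences between 0.19 and 0.32. The mouse genome holds many processed copies of Gapdh and of several other glycolytic genes, which their probes may also detect. Pgk1 and Pgam1, the kinase and mutase that follow Gapdh, differed by 0.19 and 0.20 without overlap, as did Gpi1, the isomerase that makes fructose 6-phosphate, by 0.16. The gap was small in 2 of them: the lower metformin value stood less than 0.05 above the higher control value in Pgk1 and in Gpi1. Pfkp, a phosphofructokinase subunit, differed by 0.20 and the aldolase Aldoa by 0.05. For Gapdh the 95% interval of the difference was -0.65 to 1.17, which includes a 2-fold higher level.

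The other phosphofructokinase subunits were the 2 glycolytic members below 0. Pfkl, the liver subunit, read -0.90 in metformin 1 and -0.85 in metformin 2, against -0.71 in control 1 and -0.76 in control 2. It was the 1 member whose metformin samples both lay below both controls, though the difference was only -0.14 (SE 0.27). Pfkm, the muscle subunit, read -1.42 in metformin 1 and -1.96 in metformin 2, against -1.01 in control 1 and -1.98 in control 2, a difference of -0.20 (SE 0.46). Its value in a sample rested on 10 repeated spots, whose SD was 0.05 on each array. Control 1 was highest and the samples numbered 2 were nearly equal, so that the groups overlapped.

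**Figure D3:**
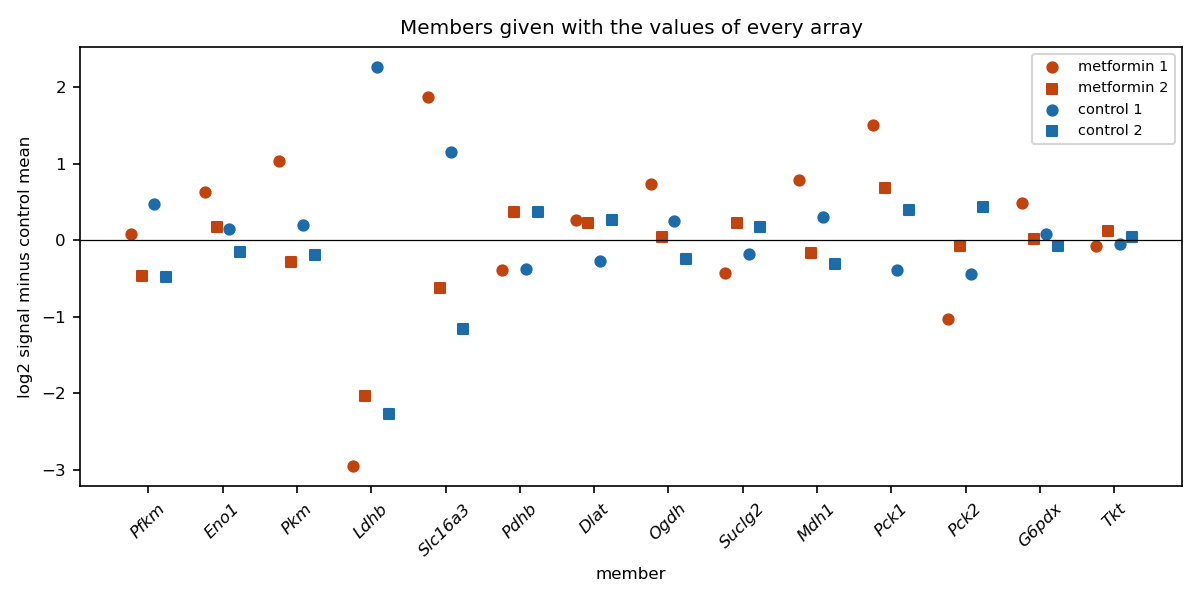
Levels of 14 members in every array, those with the highest or lowest difference or the widest range of their step, as log2 signal relative to the mean of the controls, with metformin samples in orange and controls in blue, circles for samples numbered 1 and squares for those numbered 2. In Pck1 both orange points lie above both blue ones, whereas in Ldhb control 1 lies alone at the top and in Pdhb and Slc16a3 the circles separate from the squares.

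Lactate formation and export held the widest spread. Lactate dehydrogenase is a tetramer of A and B subunits, Ldha favouring the reduction of pyruvate to lactate and Ldhb, abundant in heart and other oxidative tissue, the reverse. Ldhb and the lactate exporter Slc16a3 had the widest ranges of the step. The upstream sequences of Ldha, Ldhb and Slc16a3 are shown. They are the 250 bases before the annotated start from RefSeq (GRCm38.p6), 5′ to 3′ on the gene's strand, at chr7:46845554-46845803 (plus strand, the first of 2 annotated starts), chr6:142507958-142508207 (minus strand) and chr11:120948817-120949066 (plus strand). Capitals mark ACGTG, a form of the core of the hypoxia response element, on either strand (CACGT on the other). The form that begins with G, GCGTG, was neither searched nor marked.
Ldha: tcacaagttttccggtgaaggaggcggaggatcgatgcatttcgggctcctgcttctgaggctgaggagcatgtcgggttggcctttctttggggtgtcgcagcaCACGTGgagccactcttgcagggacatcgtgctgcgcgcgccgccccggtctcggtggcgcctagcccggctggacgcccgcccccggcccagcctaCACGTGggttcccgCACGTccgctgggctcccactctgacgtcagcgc
Ldhb: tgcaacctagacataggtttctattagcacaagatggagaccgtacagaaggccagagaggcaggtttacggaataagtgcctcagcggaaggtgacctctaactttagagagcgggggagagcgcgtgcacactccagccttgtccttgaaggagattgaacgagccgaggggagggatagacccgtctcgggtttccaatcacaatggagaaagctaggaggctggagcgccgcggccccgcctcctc
Slc16a3: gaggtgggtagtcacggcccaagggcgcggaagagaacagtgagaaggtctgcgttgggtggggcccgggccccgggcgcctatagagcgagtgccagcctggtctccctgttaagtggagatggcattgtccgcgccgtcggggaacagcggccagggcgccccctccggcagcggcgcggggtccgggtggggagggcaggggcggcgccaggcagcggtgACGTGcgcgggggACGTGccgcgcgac
The Ldha stretch held CACGTG, an E-box that contains ACGTG in both directions, at positions -145 and -48, counted back from the start. It held ACGTG alone, on the other strand, at -34. The 250 bases before the second annotated start of Ldha, not shown, held neither. The Slc16a3 stretch held the core at -27 and -14, and these letters were not in the Ldhb stretch.

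Ldha ranged over only 0.60, while Ldhb was high in a single sample. Ldha read 7.86 in metformin 1 and 7.64 in metformin 2, against 7.69 in control 1 and 7.26 in control 2, a difference of 0.27 (SE 0.32), and its 3 probes gave between 0.23 and 0.27. Ldhb read -4.56 in metformin 1 and -3.64 in metformin 2, against 0.66 in control 1 and -3.87 in control 2. Control 1 stood more than 4 log2 units above each other sample, and the other 3 samples lay within 1 unit of each other. The difference of -2.50 (SE 1.58, limma unadjusted p = 0.18, adjusted p = 1.00) was -0.23 without control 1. With normexp background correction it was -1.82. The Ldhb probe was dim in every sample but control 1. The smooth muscle markers had the same high sample: Des, an intermediate filament of muscle, read -5.66 in metformin 1 and -4.69 in metformin 2, against 0.48 in control 1 and -4.20 in control 2. The part of muscle tissue in the Ldhb value was not tested.

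The monocarboxylate transporters differed from each other. Slc16a3 (MCT4), which exports lactate from glycolytic cells, read 2.88 in metformin 1 and 0.38 in metformin 2, against 2.15 in control 1 and -0.16 in control 2. The samples numbered 1 lay far above those numbered 2 whatever the treatment. Its difference was 0.63 (SE 1.18), and leaving out single samples moved it between -0.62 (without metformin 1) and 1.88 (without metformin 2). Slc16a1 (MCT1), which carries lactate and short-chain fatty acids, read -4.03 in both metformin samples, against -4.07 in control 1 and -4.28 in control 2, a difference of 0.15 (SE 0.28) without overlap. Its probe was dim, metformin and control 1 were almost equal, and the difference was -0.15 in the unscaled deposited table. Both probes of Slc16a3 gave like differences, 0.63 and 0.66. Slc16a3, Pkm, Slc37a4, Pcx and Cs were among the 24 of 43 members that were highest in metformin 1, where 38.5% of all genes were. The median of the proximal intestinal markers was also highest there. That median was lowest in metformin 2, as Pkm was, whereas Slc16a3, Slc37a4, Pcx and Cs were lowest in control 2. The part of these markers in the members was not tested.

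**Figure D4:**
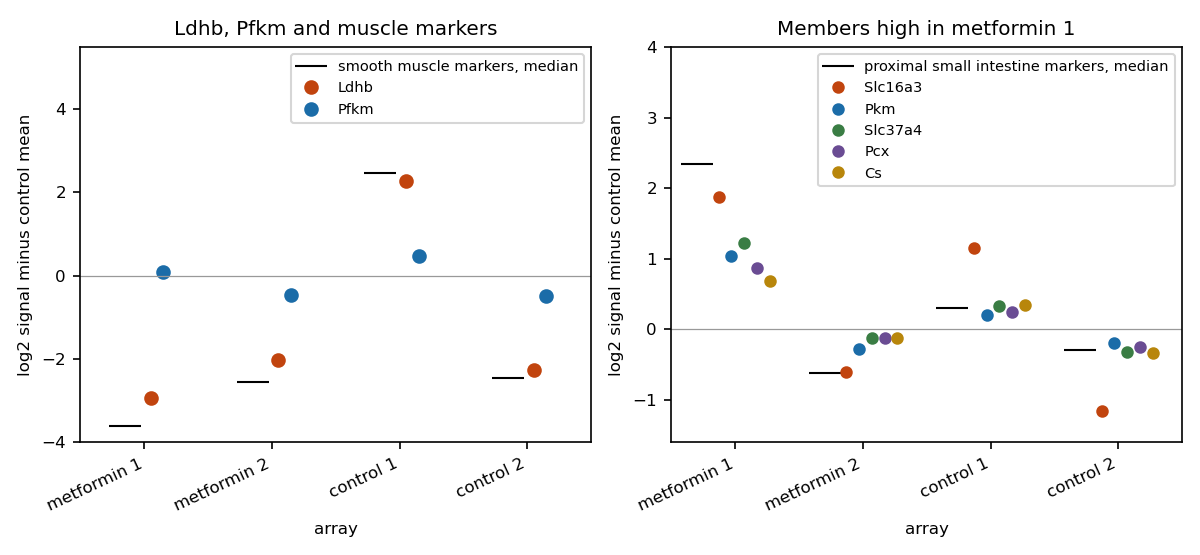
Left, Ldhb and Pfkm beside the median of 9 smooth muscle markers (dashes); right, Slc16a3, Pkm, Slc37a4, Pcx and Cs beside the median of 10 markers of the proximal small intestine (dashes), all as log2 signal minus the control mean in each array. Ldhb is high where the muscle markers are, in control 1. The 5 genes at right are highest in metformin 1, as 24 of the 43 members are, and the median of the proximal markers there lies 2.35 above the control mean. That median is lowest in metformin 2, as Pkm is, but the other genes at right are lowest in control 2.

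Pyruvate entry brings pyruvate to the TCA cycle. Of its 6 genes, 5 had a difference above 0, with a median of 0.12. The carrier subunits Mpc1 and Mpc2, which form the mitochondrial pyruvate carrier, differed by 0.20 (SE 0.31) and 0.16 (SE 0.28). Mpc2 read 3.79 in metformin 1 and 3.76 in metformin 2, against 3.67 in control 1 and 3.56 in control 2, each the mean of 10 spots with an SD of at most 0.05. The groups did not overlap, but the difference was 0.02 with quantile normalization and -0.10 in the unscaled deposited table.

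Of the 4 subunits of the pyruvate dehydrogenase complex, Pdhb, Pdha1 and Dld were higher in both samples numbered 2 than in both numbered 1. Pdhb, the beta subunit of its decarboxylase, read 3.60 in metformin 1 and 4.37 in metformin 2, against 3.62 in control 1 and 4.37 in control 2. The same-numbered samples were nearly equal, and the difference was -0.01 (SE 0.45). Pdha1, the alpha subunit, and Dld, the dihydrolipoyl dehydrogenase that the complex shares with others, had the same arrangement, with differences of 0.03 and 0.09. Dlat, the acetyltransferase core, read -0.36 in metformin 1 and -0.39 in metformin 2, against -0.89 in control 1 and -0.36 in control 2, where only control 1 stood apart, and its difference of 0.25 (SE 0.33) was the highest of the step.

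In the TCA cycle 11 of 12 genes had a difference above 0, with a median of 0.22. Ogdh, the decarboxylase of the 2-oxoglutarate dehydrogenase complex, had the highest. Its levels were 6.48 in metformin 1 and 5.78 in metformin 2, against 5.99 in control 1 and 5.49 in control 2, and the difference was 0.39 (SE 0.40, limma unadjusted p = 0.38, adjusted p = 1.00). The value of metformin 1 was alone at the top, metformin 2 lay between the controls, and without metformin 1 the difference was 0.04. Mdh2 and Mdh1, the mitochondrial and cytosolic malate dehydrogenases, differed by 0.38 (SE 0.40) and 0.31 (SE 0.47), with Mdh2 at -0.01 without metformin 1. Mdh1 had the widest range of the step, at 7.06 in metformin 1 and 6.11 in metformin 2, against 6.59 in control 1 and 5.97 in control 2.

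Partner enzymes of the cycle were ordered in opposite ways. Succinyl-CoA synthetase joins the shared subunit Suclg1 to either Sucla2, which gives the ATP-forming enzyme, or Suclg2, which gives the GTP-forming one. Sucla2 read 5.32 in metformin 1 and 4.73 in metformin 2, against 5.01 in control 1 and 4.42 in control 2, whereas Suclg2 read 0.85 in metformin 1 and 1.50 in metformin 2, against 1.09 in control 1 and 1.45 in control 2. The samples numbered 1 were the high ones for Sucla2 and the low ones for Suclg2, and the differences were 0.31 (SE 0.39) and -0.10 (SE 0.37). Suclg1 and Dlst, the succinyltransferase of the 2-oxoglutarate complex, were the 2 TCA genes without overlap, with differences of 0.16 and 0.21. Of all genes, 12.3% lay above both controls in this way. The gap was small in both. Suclg1 read 4.43 in metformin 1 against 4.38 in control 2, and Dlst 4.01 in metformin 2 against 3.96 in control 1.

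Cs, the citrate synthase that opens the cycle, differed by 0.27 (SE 0.45) and was highest in metformin 1, at 7.80, with 6.99 in metformin 2, 7.46 in control 1 and 6.79 in control 2. Fh1, the fumarase, differed by 0.08 and had its 2 higher values in the samples numbered 2. So did Idh3a and Idh3b, the catalytic and a regulatory subunit of NAD-dependent isocitrate dehydrogenase, with differences of 0.22 and 0.12, while Idh3g, its other regulatory subunit, differed by 0.13, ranged over only 0.26 and was separated by neither number nor treatment.

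**Figure D5:**
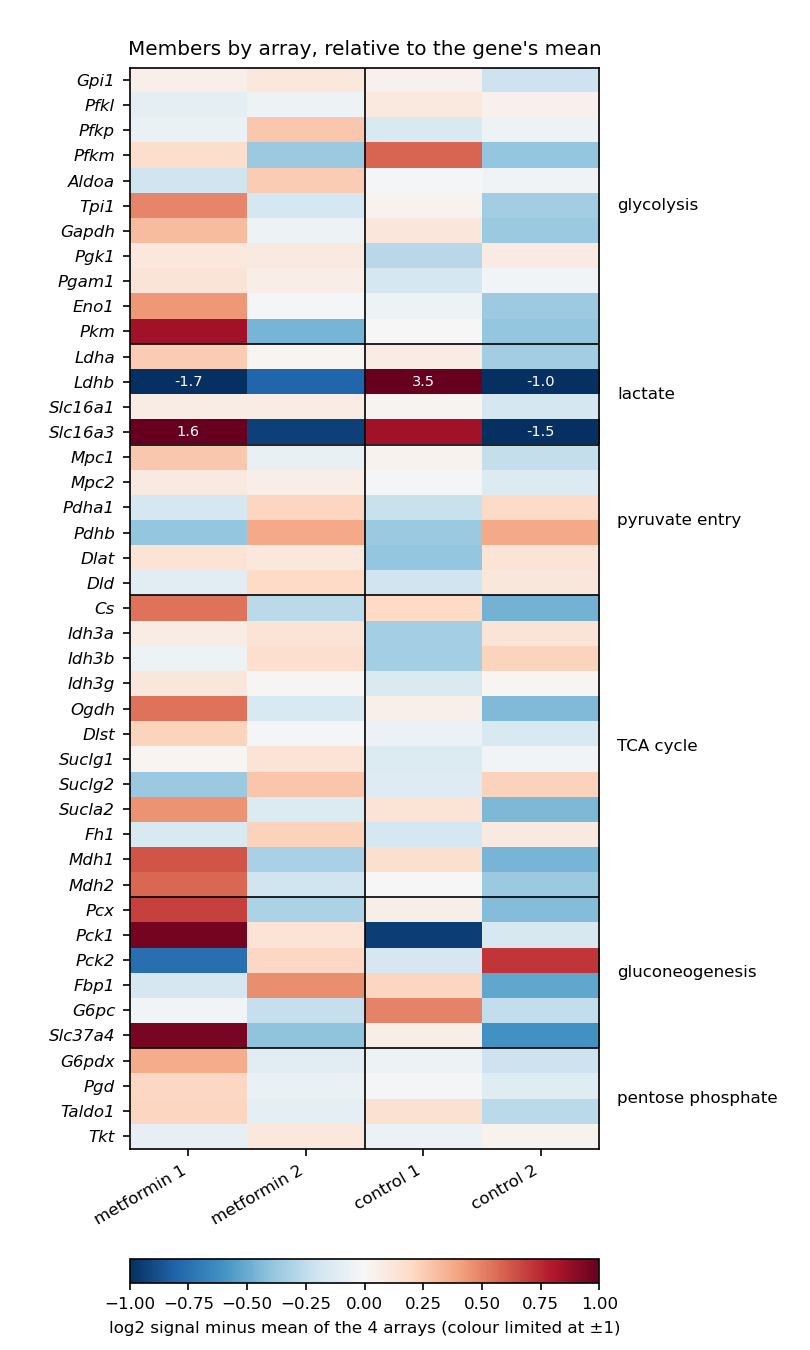
Level of each member in each array as log2 signal minus the gene's mean over the 4 arrays, red above and blue below, with colour limited at ±1 and larger values printed; metformin arrays are left of the vertical line and horizontal lines separate the pathway steps. Metformin 1 is the reddest column, with the highest value of 24 members, and control 2 the bluest, with the lowest value of 23.

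Gluconeogenesis held the largest difference above 0. Pck1, the cytosolic phosphoenolpyruvate carboxykinase that commits oxaloacetate to glucose and glycerol synthesis, was the only member at least 2-fold different without overlap, where 0.628% of all genes were at least 2-fold higher in this way and 2.32% at least 2-fold lower. Its upstream sequence is shown because it is that member, as the 250 bases before the annotated start at chr2:173152823-173153072 (plus strand, RefSeq, GRCm38.p6). Capitals mark TTACGTCA, a cyclic AMP response element known from the rat gene, which began at position -93.
Pck1: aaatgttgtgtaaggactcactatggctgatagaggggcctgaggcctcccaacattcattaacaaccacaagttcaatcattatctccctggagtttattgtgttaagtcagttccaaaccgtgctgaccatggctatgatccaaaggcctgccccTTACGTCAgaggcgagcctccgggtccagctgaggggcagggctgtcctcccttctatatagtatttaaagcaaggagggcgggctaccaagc
Pck1 read 4.39 in metformin 1 and 3.57 in metformin 2, against 2.49 in control 1 and 3.28 in control 2. Both metformin values lay above both controls, with control 1 lowest and metformin 2 close to control 2. The level was 2.14-fold higher with metformin (difference 1.10, SE 0.47, 95% interval -0.16 to 2.35, limma unadjusted p = 0.073, adjusted p = 1.00), and the difference was 0.98 with quantile normalization and 0.83 in the unscaled table, both under 2-fold. Leaving out single samples moved it between 0.69 (without metformin 1) and 1.51 (without metformin 2).

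Pck1 is also made by fat cells. Of 9 measured adipocyte markers, 7 were below both controls in both metformin samples and 2 had a difference above 0, of at most 0.57. Adipoq, which encodes adiponectin, read -4.31 in metformin 1 and -6.54 in metformin 2, against -2.60 in control 1 and -1.14 in control 2. Markers of the proximal small intestine were highest in metformin 1, as Pck1 was, but lowest in metformin 2, where Pck1 was second. The part of either marker list in the Pck1 difference was not tested.

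The mitochondrial form had a difference of the opposite sign, which did not pass the test. Pck2, that form, read -5.23 in metformin 1 and -4.27 in metformin 2, against -4.64 in control 1 and -3.76 in control 2, a difference of -0.55 (SE 0.52) with overlapping groups. Its probe was dim, and it was -0.14 with normexp background correction. Up to 10 repeated spots stood behind each value, with an SD of at most 0.13. Slc37a4, which carries glucose 6-phosphate into the endoplasmic reticulum, differed by 0.54 (SE 0.57), with 4.07 in metformin 1 standing above 2.72 in metformin 2, 3.18 in control 1 and 2.52 in control 2. Without metformin 1 its difference was -0.13.

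G6pc, the phosphatase that frees glucose at that site, read 1.60 in metformin 1 and 1.39 in metformin 2, against 2.13 in control 1 and 1.38 in control 2, a difference of -0.26 (SE 0.38). Only control 1 was high, so that the transporter and the phosphatase of the same pathway had different high samples. Fbp1, the fructose bisphosphatase, read 3.34 in metformin 1 and 3.97 in metformin 2, against 3.72 in control 1 and 2.99 in control 2, with no separation by treatment or by number. Pcx, the pyruvate carboxylase that supplies oxaloacetate, differed by 0.37 (SE 0.46) and was highest in metformin 1, at 2.54, against 1.42 in control 2.

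The pentose phosphate pathway had differences near 0. All 4 genes had a difference above 0, with a median of 0.13 and 0 without overlap. G6pdx, the glucose 6-phosphate dehydrogenase that opens the pathway and makes NADPH, read 3.06 in metformin 1 and 2.57 in metformin 2, against 2.64 in control 1 and 2.48 in control 2, a difference of 0.25 (SE 0.32). Metformin 1 alone was high. Pgd, the next NADPH-forming enzyme, differed by 0.14 and Taldo1, the transaldolase, by 0.12. Tkt, the transketolase, read 5.81 in metformin 1 and 6.00 in metformin 2, against 5.83 in control 1 and 5.93 in control 2. It was one of the steadiest members, with a difference of 0.02 (SE 0.28) and a 95% interval of -0.74 to 0.78.

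Over the 43 members together the sample number separated more members than the treatment did, as it also separated more of all genes. Within glycolysis, number and treatment each separated 4 genes in 1 direction and 1 in the other. Both samples numbered 1 lay above both numbered 2 in 18 of the 43 members (41.9%), as in 38.2% of all genes tested, and the reverse held in 10 members (23.3%), as in 27.7% of all genes. The members therefore divided by number much as all genes did. The 18 were 4 in glycolysis, 2 in lactate, 1 in pyruvate entry, 5 in the TCA cycle, 3 in gluconeogenesis and 3 in the pentose phosphate pathway, and the 10 were Pdha1, Pdhb, Dld, Suclg2, Fh1, Idh3a, Idh3b, Pck2, Pfkp and Tkt. The order metformin 1, control 1, metformin 2, control 2 from high to low occurred in 15 members (34.9%), where 19.6% of all genes had it. The order metformin 2, control 2, metformin 1, control 1 occurred in 5 members, where 5.26% of all genes had it. Neither number nor treatment separated the samples in 5 members, as in 13.2% of all genes. The highest value fell in metformin 1 for 24 members (55.8%), where 38.5% of all genes had theirs, and the lowest in control 2 for 23 (53.5%), where 36.9% had theirs. Metformin 2 was highest in 11 members, where it was in 19.8% of all genes, while control 1 and control 2 were highest in 4 each, where they were in 21.8% and 19.8% of all genes. Metformin 1 was lowest in 7 members and metformin 2 in 1, where they were in 28.4% and 16.7% of all genes, and control 1 was lowest in 12, where it was in 18.0%.

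Of 54 other genes of these pathways 53 were measured, and limma called 0 of them higher and 0 lower. In limma 1 of them had an unadjusted p under 0.05, the neuronal enolase Eno2, with a difference of -1.91 (unadjusted p = 0.049, adjusted p = 1.00), named after its value was seen. Their median difference was 0.19, with 34 above 0 and 19 below, 6 above without overlap and 3 below, where 12.3% of all genes were above and 8.57% below in this way. Sdha, the flavoprotein of succinate dehydrogenase, differed by 0.17 without overlap, and Idh1, the cytosolic isocitrate dehydrogenase, by 0.49 (SE 0.48). Among tissue isoforms, Pklr, the liver pyruvate kinase, differed by 0.25, Eno3, the muscle enolase, by 0.52 (SE 0.36) without overlap and the muscle mutase Pgam2 by 0.24 without overlap. Hk1, a hexokinase, differed by -0.24, the malic enzyme Me1 by -0.15, the ribose isomerase Rpia by -0.08 and the lactonase Pgls by -0.09.

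Pfkfb3, which makes the phosphofructokinase activator fructose 2,6-bisphosphate, read 1.37 in metformin 1 and 4.02 in metformin 2, against -0.05 in control 1 and 3.61 in control 2. The samples numbered 2 were high in both groups, opposite to Slc16a3, and the difference was 0.91 (SE 1.54). Pdk4, a kinase that switches pyruvate dehydrogenase off, read 1.23 in metformin 1 and 2.58 in metformin 2, against 1.21 in control 1 and 2.18 in control 2, in the same arrangement as Pdha1 and Pdhb. Pdk1, another such kinase, read -1.21 in metformin 1 and -1.10 in metformin 2, against -1.01 in control 1 and -0.77 in control 2, lower without overlap by 0.27 on the log2 scale (SE 0.29).

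The ACGTG form of the hypoxia response core was searched in windows from 250 bases before to 50 after each RefSeq start, on both strands. GCGTG was not counted. Of the 43 members 42 had a window, the exception being Idh3a, and 15 of these genes (35.7%) held ACGTG, as did 21.8% of all 27025 genes with a window. By step, 6 of 11 glycolytic genes and 3 of 4 lactate genes held it, against 3 of 11 in the TCA cycle and 1 each in pyruvate entry, gluconeogenesis and the pentose phosphate pathway. The E-box CACGTG, whose letters include ACGTG, was held by 5 members (11.9%), as by 8.09% of all genes. TTACGTCA was held by 1 member, Pck1, as by 0.581% of all genes. These are counts of letters and not of bound sites.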

How the data were processed

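Ileal RNA was hybridised to 4 single-colour arrays (Cy3), all on 1 slide and read in 1 scan, with controls at positions 1 and 2 and metformin samples at positions 3 and 4, so that position cannot be told apart from treatment. Per the file headers, Agilent Feature Extraction 10.7.3.1 made the spot intensity values, the processed signal intensity being background-subtracted within each array and not scaled between arrays. The table of the whole series deposited by the authors holds intensity values equal to the raw median spot signal for 39030 of 39030 single-spot probes (within 1e-06), with column medians of 78 and 87 for metformin 1 and 2 and 91 and 112 for control 1 and 2. It served as an alternative only, and 6 further columns of it, which match no sample, were not used.

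Groups came from the sample titles, since the treatment text is the same for all 4 samples. Outlier spots were left out, the log2 processed signals of a probe averaged and each array's 75th percentile subtracted. Accessions were matched to RefSeq symbols (GRCm38.p6). The file headers name another build, so no gene coordinates other than those of the printed RefSeq sequences are given. A probe was kept (26441 were) where both arrays of either group had it well above background, and the brightest probe of a gene was tested. The comparison used R 4.3.3 with limma 3.58.1 (lmFit, eBayes; 2 residual and 2.43 prior degrees of freedom), two-sided, and p-values adjusted after Benjamini-Hochberg counted as calls under 0.05. The procedure was run on simulated data to check the estimated size of a change. That simulated noise was independent between samples, unlike the shared deviation of same-numbered samples here. An exact permutation test of 1 value cannot go below p = 0.333 here, so none is given. The number of arrays limits the precision.

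The members, gene lists and alternatives were chosen with earlier results of these data known. All members are named; the values of every array are given where a member's groups do not overlap with a difference of at least 0.5, or where it has the highest or lowest difference or the widest range of its step, and for others chosen after their values were seen. TTACGTCA was likewise chosen afterwards. The normexp alternative used the median spot signal, since a mean signal column is absent from these files. Values of some other pathway genes are not reported here.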

Additional observations from a re-analysis of the deposited data

How the results depend on the processing

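No gene was called in either direction under any of the 14 alternatives. The members without overlap, 9 higher and 1 lower as reported, numbered 2 higher with quantile normalization (14.0% of all genes higher), 18 higher and 0 lower with each array's median (26.4% and 5.14%) and 0 higher and 3 lower in the unscaled deposited table (1.35% and 17.8%). With 1 sample left out, where 3 arrays overlap less easily, they numbered 17 to 27 higher and 2 to 7 lower, where 24.6% to 42.7% of all genes were higher and 22.0% to 31.7% lower, and the lone sample of a group was assumed to vary like the others. The median difference of 0.20 was 0.079 with quantile normalization, 0.32 with each array's median, -0.072 in the unscaled table and 0.10 to 0.25 with 1 sample left out. In the other settings it lay between 0.18 and 0.20. Members changed sign in 6 cases with quantile normalization (none over 0.12 in size) and in 22 in the unscaled table. They did so in 7 to 11 cases with 1 sample left out and in 2 with each array's median. With normexp, and in the deposited table once scaled, 3 members each changed sign. No member was called in any setting, so such a turn of sign ended no call. The cause was not tested.

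The titles number the samples 1 and 2 in both groups, with nothing to say that a number marks a shared animal or day. Same-numbered samples deviated together (r = 0.56 across genes). With the number as a replicate block the median stayed at 0.20, the smallest adjusted p of a member was 0.63 and 0 genes were called, with 1566 genes at an unadjusted p under 0.05 in place of 347.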

Other observations

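Genes that adjust the flow through pyruvate dehydrogenase, named after their values were seen, had opposite orders in the samples. Pdp1, a phosphatase that switches the complex on, read -1.23 in metformin 1 and 1.53 in metformin 2, against -0.29 in control 1 and 1.06 in control 2. Pdp2, its second phosphatase, read 1.77 in metformin 1 and -0.30 in metformin 2, against 1.46 in control 1 and 0.09 in control 2. The high samples of each were the low samples of its partner, and the differences were -0.23 (SE 1.07) and -0.04 (SE 0.88). Among the kinases, Pdk2 read 2.74 in metformin 1 and 0.87 in metformin 2, against 2.16 in control 1 and 0.94 in control 2, opposite to Pdk4.

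Some other pathway genes ranged widely in single samples. Me3, a mitochondrial malic enzyme, read -3.11 in metformin 1, against 0.97 in metformin 2, -0.11 in control 1 and 0.41 in control 2. Eno2, the neuronal enolase, read -6.14 in metformin 1 and -6.45 in metformin 2, against -3.42 in control 1 and -5.34 in control 2. Both metformin values of Eno2 lay below both controls, and the 6 measured neuron and glia markers were also lower, with a median difference of -1.58; their part in the Eno2 value was not tested. Slc2a2, the glucose transporter GLUT2, read 3.89 in metformin 1, against 0.98 in metformin 2, 1.48 in control 1 and 0.17 in control 2.

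Of 10 known hypoxia targets, 8 had a difference above 0, where 57.6% of all genes did, with a median of 0.31. None was without overlap, where 12.3% of all genes were above and 8.57% below in this way. Their median relative to the control mean was -0.14 in metformin 1 and 0.55 in metformin 2, against -0.41 in control 1 and 0.41 in control 2. By number, the samples numbered 2 were above those numbered 1 in 6, among them Slc2a1 and Hk2, and below in 4, among them Bnip3, Egln3 and Ankrd37. Ankrd37 read 0.56 in metformin 1 and -1.41 in metformin 2, against 0.42 in control 1 and -2.35 in control 2.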
